A study of Mus musculus with 54 samples.

Results

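The miR-290 cluster and the miR-302 cluster, which also holds Mir367, encode microRNAs (miRNAs) characteristic of mouse stem cells, and the accessible regions around them were examined in mouse embryonic stem (ES) cells. The listed members were 7 of 2202 annotated miRNA genes, namely Mir294 and Mir295 of the miR-290 cluster on chromosome 7 and Mir302a, Mir302b, Mir302c, Mir302d and Mir367 of the miR-302 cluster on chromosome 3. A peak, a region called accessible by ATAC-seq, belonged to a cluster when no more than 50 kb separated its centre from a transcription start site (TSS) of a listed gene. For a miRNA gene the annotated TSS is the first base of the hairpin, the folded precursor, and not the start of the primary transcript. This gave 16 peaks for the miR-290 cluster and 9 for the miR-302 cluster, 25 of 113737 peaks in all.

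In ATAC-seq a transposase, Tn5, inserts sequencing adapters where DNA is open, and the experiments asked at which times and phases of the cell cycle OCT4 keeps enhancers accessible. The cells were of the line ZHBTc4, whose own Pou5f1 gene is silenced by doxycycline (dox), and instead relied on mCherry-OCT4-AID, a tagged OCT4 that the auxin indole-3-acetic acid (IAA) causes to be degraded. All 54 samples, in 24 groups, had dox, the Tir1 ubiquitin ligase that IAA acts through, and the cell cycle reporter YPet-MD. Every value on peaks below came from 1 list of peaks merged over these samples. That list shows where chromatin was open in at least 1 of them and holds no level for a treatment, a phase or a time. Mature strands, host transcripts and promoters came from the RefSeq annotation.

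A set of 22 samples followed the cell cycle. These cells had 26 hr of dox and 2 hr of 500 nM IAA or none, and were sorted into EG1 and LG1 (the early and late parts of G1), S phase, and SG2 (late S together with G2), with 3 replicates per treatment, or 2 in SG2. A further 16 samples had 31 hr of dox and 2.5 hr of IAA or none, followed by a washout of 4.5 hr and the same sort, as pairs of replicates. The last 16 samples were an unsorted time course with 34 hr of dox, also as pairs, in which IAA was absent or had acted over the last 30 min or over the last 1, 2, 3, 4, 6 or 10 hr. The transgenes were introduced by lentivirus, with mCherry-OCT4-AID and YPet-MD each driven by the PGK promoter, mCherry-OCT4-AID at a low level, and the line was a sorted population. The medium held LIF, which signals through STAT3, and inhibitors of GSK3 and MEK.

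MicroRNAs are short RNAs cut from a hairpin that lower the translation and stability of messenger RNAs, which they recognise mainly through the seed, bases 2 to 8 of the mature strand. Several hairpins of a cluster are cut from 1 primary transcript, so a cluster has a promoter in common. The miR-290 and miR-302 families are known as the most characteristic miRNAs of pluripotent cells, where they speed the passage from G1 to S phase, among other routes by lowering Cdkn1a, an inhibitor of cyclin-dependent kinases. In the mouse, the miR-290 cluster is known to be active in naive ES cells, and the miR-302 cluster to be most active in the later, primed epiblast.

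The mature strands show what joins the clusters. The 3p strands below are from RefSeq (GRCm38), in the order of the hairpins along the chromosome, with the seed in capitals. They are shown because the seed defines a miRNA family.
miR-290a-3p: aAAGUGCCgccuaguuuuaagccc
miR-291a-3p: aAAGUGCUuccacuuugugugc
miR-291b-3p: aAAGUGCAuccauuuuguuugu
miR-293-3p: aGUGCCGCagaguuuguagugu
miR-294-3p: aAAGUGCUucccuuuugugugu
miR-295-3p: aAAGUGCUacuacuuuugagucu
miR-302b-3p: uAAGUGCUuccauguuuuaguag
miR-302c-3p: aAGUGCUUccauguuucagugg
miR-302d-3p: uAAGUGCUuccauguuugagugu
miR-367-3p: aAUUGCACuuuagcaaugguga

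The seed AAGUGCU occurred in 5 of these strands, miR-291a-3p, miR-294-3p, miR-295-3p, miR-302b-3p and miR-302d-3p. The strands miR-292a-3p and miR-302a-3p are not shown and were not compared. Also not shown are miR-290b-3p (AGUGCCC) and miR-292b-3p (AGAGCCC), from hairpins annotated on the other strand. miR-302c-3p holds the same letters from its first base, so its seed read AGUGCUU. The miR-302 3p strands printed above shared a run of 16 bases, AAGUGCUUCCAUGUUU, miR-294-3p and miR-302b-3p shared 10 bases, AAGUGCUUCC, and miR-294-3p and miR-295-3p shared 8. miR-290a-3p (AAGUGCC), miR-291b-3p (AAGUGCA) and miR-293-3p (GUGCCGC) had seeds of their own among the printed strands.

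miR-367-3p belongs to another family. Its seed, AUUGCAC, was shared with 5 other mature miRNAs of 1738 entries in the RefSeq table, miR-25-3p, miR-32-5p, miR-363-3p, miR-92a-3p and miR-92b-3p, which come from 6 genes. Of those 6 genes, Mir25, Mir92-1 and Mir92b had a peak centred within 1 kb of their TSS, beside 19.4% of all miRNA genes.

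The miR-290 cluster lay on the plus strand near the start of chromosome 7 and held 9 annotated miRNA genes. The sense hairpins were Mir290a (chr7:3218626-3218708), Mir291a (chr7:3218919-3219000), Mir292 (chr7:3219189-3219270), Mir291b (chr7:3219482-3219560), Mir293 (chr7:3220343-3220422), Mir294 (chr7:3220641-3220724) and Mir295 (chr7:3220773-3220841). Mir290b and Mir292b were annotated on the minus strand inside Mir290a and Mir292. In GENCODE, 7 of these genes, all but Mir290a and Mir290b, overlapped an exon of Nlrp12, which runs on the opposite strand to the sense hairpins and encodes a cytoplasmic receptor of the NLR family.

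A single wide peak covered the start of the cluster. It spanned 2592 bp (chr7:3217543-3220134), its centre lay 212 bp downstream of the first base of Mir290a, and it was wider than 99.4% of all proximal peaks, those centred within 1 kb of a TSS. In the whole list 189 peaks were wider. It held the complete hairpins of Mir290a, Mir291a, Mir292 and Mir291b and of the antisense Mir290b and Mir292b, 6 in all. Only 1 other peak of the 256 that overlapped a miRNA hairpin held more than 2, with 3 around Mir9-1, so this was the highest number in the list.

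The listed members Mir294 and Mir295 lay outside it, as did Mir293. For Mir294 and Mir295 the nearest peak centre was 1486 and 1354 bp away, in the next peak downstream (chr7:3221555-3222699, 1145 bp), and for Mir293 it was that of the wide peak, 1505 bp away. These 3 hairpins thus stood in a gap of 1420 bp between peaks. Of all miRNA genes, 19.4% had a peak centred within 1 kb of the TSS and 12.7% had a hairpin that overlapped a peak. In the miR-290 cluster 6 of 9 genes met both criteria, and all 6 shared the wide peak, so they count as 1 region and not as 6.

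**Figure D1:**
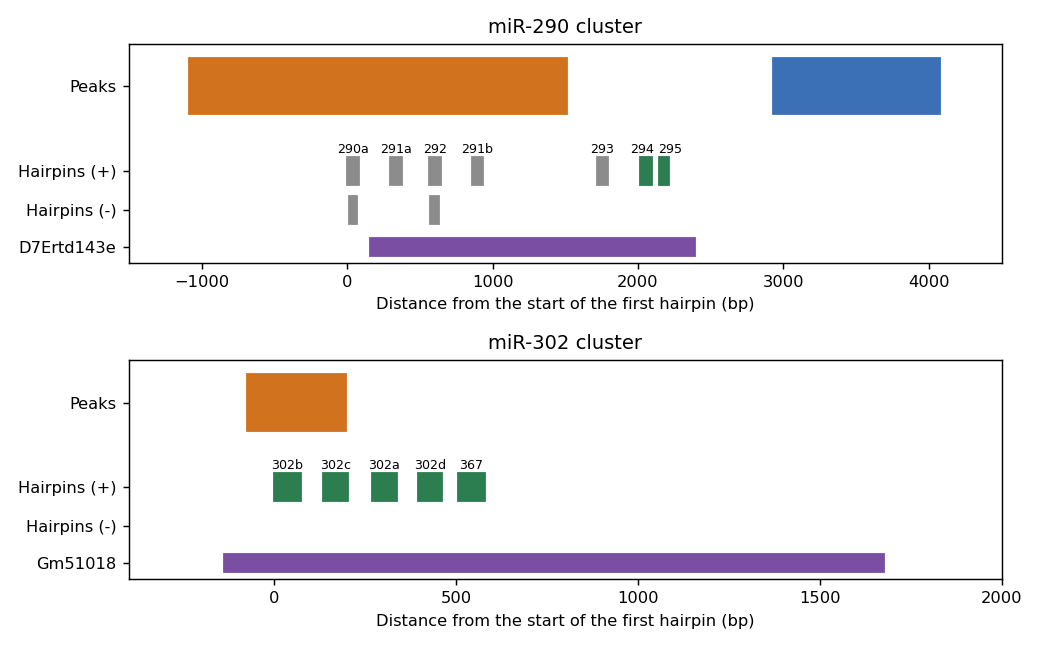
Peaks and hairpins at the clusters, drawn to scale, by distance in bp from the first base of the first hairpin in the direction of transcription, with a different scale in each panel. Orange bars are proximal peaks and blue bars distal peaks, green boxes are the listed members, grey boxes other miRNA genes of the cluster on the plus or minus strand, and purple bars the RefSeq host transcripts. The wide miR-290 peak covers Mir290a to Mir291b and ends before Mir293, and the 273 bp peak of the miR-302 cluster covers Mir302b and most of Mir302c.

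The host transcript of the miR-290 cluster, the noncoding RNA D7Ertd143e, was taken from RefSeq (chr7:3218784-3221015, 2232 bp), where it holds 6 of the 7 sense hairpins and starts 158 bp downstream of the first base of Mir290a. Its start was 54 bp from the centre of the wide peak, and 1351 bp of the transcript lay in peaks. The RefSeq promoter window, 250 bp before to 50 bp after that start, lay wholly in the wide peak (chr7:3218534-3218833, plus strand, GRCm38). It holds the whole Mir290a hairpin, so the annotated start is not the start of a transcript that carries Mir290a. The window is printed because it lies at the centre of the wide peak, and the capitals mark the E-box CACGTG, the letters that MYC and related factors bind.
D7Ertd143e promoter: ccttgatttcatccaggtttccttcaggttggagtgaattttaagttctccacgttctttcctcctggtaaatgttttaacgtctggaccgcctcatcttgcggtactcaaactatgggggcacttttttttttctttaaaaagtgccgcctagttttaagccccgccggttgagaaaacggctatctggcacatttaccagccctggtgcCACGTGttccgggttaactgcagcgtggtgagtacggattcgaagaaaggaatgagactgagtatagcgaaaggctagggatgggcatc

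The first base of the E-box lay 39 bp upstream of the annotated start of D7Ertd143e and downstream of the Mir290a hairpin (chr7:3218745-3218750), and 7.15% of 32851 RefSeq promoters of the same length held these letters. The wide peak held a second E-box 943 bp from its centre, and 39.9% of peaks of like width held at least 1. The window had 47.7% GC and a ratio of observed to expected CpG of 0.82. The wide peak as a whole had 49.3% GC and a CpG ratio of 0.47, where the median of all proximal peaks was 57% GC and 0.58, and 17.5% of proximal peaks had a lower GC content. Annotated repeats made up 20.1% of its bases, more than in 88% of proximal peaks.

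The wide peak held the letters ATCAAAG, the core that TCF factors of the Wnt pathway bind, at 2 places, and both lay in hairpins. Of peaks within 10% of its width, 17.5% held these letters at least once. The matches were in Mir291a and Mir291b, where the same 7 letters, read as RNA, are the seed of the 5p strands below. A match there may be counted as a TCF motif or as a miRNA seed, and the data do not tell these apart.
miR-291a-5p: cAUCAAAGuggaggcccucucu
miR-291b-5p: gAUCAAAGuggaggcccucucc

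Around the wide peak the miR-290 cluster was dense in distal peaks. Of the 16 peaks, 14 were distal, where 78.9% of all peaks were, and 11 were intergenic, 2 were in introns of Nlrp12 and 1 was in an exon of Nlrp12. The widest distal peaks spanned 1145, 1094 and 1019 bp, so that 3 of 14 were 1 kb or wider, where 7.28% of all distal peaks were. The median width of the distal peaks was 576 bp, and that of all distal peaks was 380 bp.

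Upstream of the cluster stood 8 peaks, all distal and all in the sequence between the pseudogene Gm3375 and Mir290a. From the farthest to the nearest they were centred 34.0, 26.5, 25.3, 24.3, 17.2, 14.6, 11.8 and 6.5 kb before the first hairpin, and they were 873, 463, 212, 689, 1019, 325, 850 and 1094 bp wide. Their widths lay on both sides of the 380 bp median of all distal peaks, with 6 of 8 above it. The 4 nearest had Mir290a as the gene with the closest TSS, and the other 4 had Gm3375. With the peak downstream of Mir295 they formed a run of 9 distal peaks over 38.5 kb in which no gap between distal peaks reached 12.5 kb, the distance often used to join enhancer parts. Of 10002 runs of 3 or more distal peaks in the list, 92.5% had fewer peaks and 97.3% a smaller summed width than the 6670 bp found here. Downstream were a pair of shorter runs of 3 distal peaks, with 867 bp in all at chr7:3237658-3251969, where 5.95% of runs had less, and 1853 bp at chr7:3266990-3281029, where 47.3% had less and 1 of the 3 peaks lay beyond the 50 kb limit.

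Downstream of the first base of Mir290a stood 8 peaks as well, counting the wide peak, and 6 of them were distal. They covered 6644 bp, against 5525 bp upstream. After the 1145 bp peak came 14958 bp without a peak, then 209 and 308 bp peaks in introns of Nlrp12 and a 350 bp peak beyond its annotated start, centred 19.1, 29.7 and 33.2 kb after the first hairpin. At 46.3 kb, a 1098 bp proximal peak lay 217 bp from the TSS of the pseudogene Gm20553, followed by distal peaks of 731 and 211 bp. The TSS of Nlrp12 had no peak centred within 1 kb, since the nearest centre, that of the 308 bp peak, was 1246 bp from the nearest of its TSSs. Its RefSeq promoter lay outside all peaks. Over all protein-coding genes, 70.8% had a peak centred within 1 kb of a TSS.

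**Figure D2:**
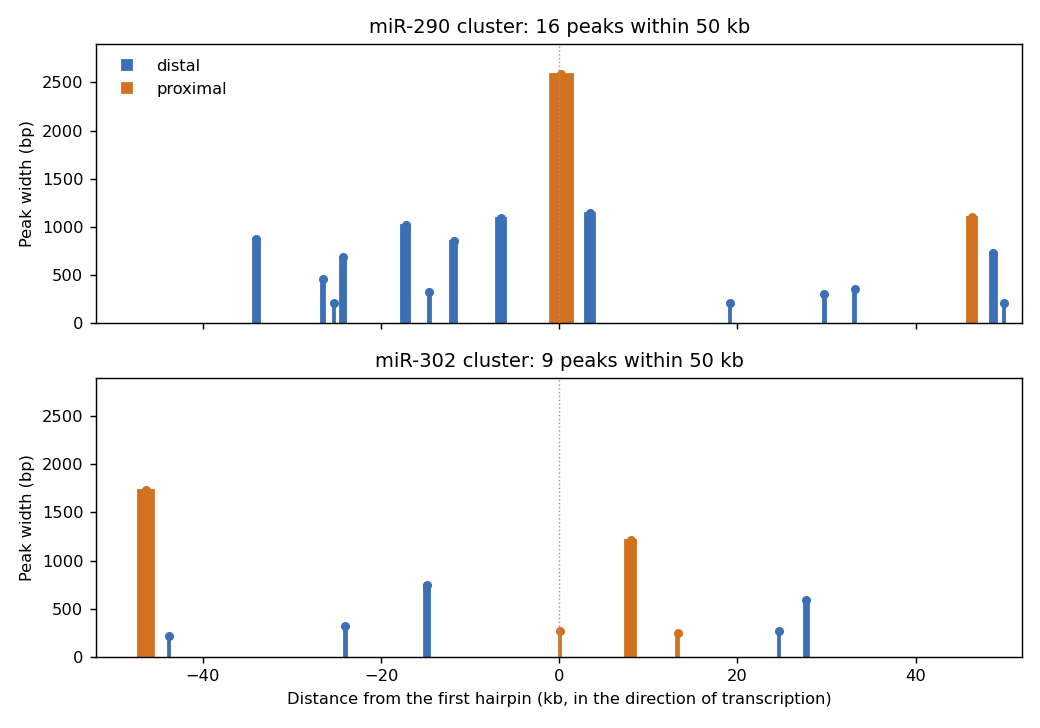
Width in bp of each peak against its distance in kb from the first hairpin, in the direction of transcription, for the miR-290 cluster (upper panel, 16 peaks) and the miR-302 cluster (lower panel, 9 peaks). Bars have the true extent of each peak, blue for distal and orange for proximal. The upstream side of the miR-290 cluster holds 8 distal peaks within 34.0 kb, and the miR-302 cluster has 3 on that side.

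Some peaks of the miR-290 cluster lay close to the 50 kb limit. The farthest member upstream was centred 35992 bp from the nearest listed TSS, and the first peak left out on that side was 51889 bp away, a 981 bp peak at AU018091 (chr7:3168262-3169242). Downstream the last member was at 47822 bp and the next peak, of 911 bp, at 59801 bp.

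The miR-302 cluster was more compact. Its hairpins, Mir302b (chr3:127545228-127545301), Mir302c (chr3:127545363-127545430), Mir302a (chr3:127545496-127545564), Mir302d (chr3:127545624-127545689) and Mir367 (chr3:127545733-127545807), all lay on the plus strand in an intron of Larp7. Larp7 runs on the opposite strand and encodes a protein that binds the noncoding RNA 7SK, a brake on transcription elongation.

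A narrow peak of 273 bp (chr3:127545152-127545424) was centred 60 bp from the first base of Mir302b. It held the whole 74 bp hairpin of Mir302b and 62 of the 68 bp of Mir302c, and none of Mir302a, Mir302d and Mir367, although all 5 TSSs lay within 445 bp of its centre. Thus 5 of 5 genes had a peak centre within 1 kb and 2 of 5 overlapped a peak, from a single region. Only 11.1% of all proximal peaks were narrower. The peak had 42.1% GC and held no annotated repeat. Only 3.95% of proximal peaks had a lower GC content. The peak is printed whole on the plus strand (GRCm38), since it is the accessible part of the cluster itself, with the bases of the Mir302b and Mir302c hairpins in capitals.
Mir302b and Mir302c peak: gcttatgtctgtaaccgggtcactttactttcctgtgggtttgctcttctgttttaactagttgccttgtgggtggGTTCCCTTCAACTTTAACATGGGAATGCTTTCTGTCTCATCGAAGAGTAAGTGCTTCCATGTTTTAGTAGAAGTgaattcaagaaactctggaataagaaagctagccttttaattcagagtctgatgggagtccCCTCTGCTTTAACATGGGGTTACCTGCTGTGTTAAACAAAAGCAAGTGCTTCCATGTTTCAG

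Both capital stretches hold AAGTGCTTCCATGTTT, the DNA form of the run shared by the miR-302 3p strands. None of the 10 motifs searched matched inside this peak.

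The host transcript in RefSeq, the noncoding RNA Gm51018 (chr3:127545089-127546903, 1815 bp), holds all 5 hairpins and starts 139 bp before Mir302b. Its start was 199 bp from the centre of the narrow peak but outside it, because the peak began 63 bp further downstream. None of its promoter, from 250 bp before to 50 bp after the start (chr3:127544839-127545138, plus strand), lay in a peak. The promoter is printed for comparison with that of D7Ertd143e, and the capitals mark a SOX match, ACAAAGG, which is the reverse complement of a form of CCNTTGT, and the TATA box letters TATAAA.
Gm51018 promoter: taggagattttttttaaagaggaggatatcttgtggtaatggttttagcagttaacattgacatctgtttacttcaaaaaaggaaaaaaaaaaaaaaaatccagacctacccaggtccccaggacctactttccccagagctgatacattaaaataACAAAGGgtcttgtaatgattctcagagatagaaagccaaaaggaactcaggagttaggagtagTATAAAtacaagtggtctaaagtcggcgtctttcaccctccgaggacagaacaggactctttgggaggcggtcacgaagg

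The TATA letters began 30 bp before the annotated start and the SOX match 94 bp before it, and each of these motifs was held by 13.6% of RefSeq promoters. The promoter had 40.3% GC and a CpG ratio of 0.42. The D7Ertd143e window lay in a peak over all of its 300 bp and held neither motif. That window includes the Mir290a hairpin, whereas the Gm51018 window lies before all hairpins of its cluster. The windows are therefore not like for like.

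Of the 9 peaks around the miR-302 cluster, 5 were distal (78.9% of all peaks were) and 4 proximal. The widest were at promoters of neighbouring protein-coding genes. A 1730 bp peak lay 171 bp from a TSS of Ank2, which encodes ankyrin-B, a protein that anchors membrane proteins to the cytoskeleton, 46.4 kb before Mir302b. A 1212 bp peak, centred 8.0 kb after the first base of Mir302b, covered the shared start region of Larp7 and Zgrf1, which run apart from there. Its centre was 65 bp from a TSS of Larp7, and it covered both RefSeq promoters over their 300 bp. Those promoters had 61.7% and 61.3% GC and CpG ratios of 1.12 and 1.24, well above those of either miRNA host. The other proximal peak was 249 bp wide, lay 953 bp from a TSS of Gm43729 and consisted of repeats over 87.1% of its bases.

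The 5 distal peaks were 215, 322, 745, 271 and 592 bp wide. Their centres lay 43.8, 24.0 and 14.8 kb before the first hairpin, between Ank2 and Larp7, and 24.7 and 27.8 kb after it, in introns of Zgrf1. None was 1 kb or wider, and their median of 322 bp was below the 380 bp of all distal peaks. They formed no run of 3 or more, and the largest gap between neighbouring peaks was 19560 bp. The nearest distal peak to Mir302b was the 745 bp peak (chr3:127530012-127530756), which had Mir302b as the gene with the closest TSS. The next peaks outside the limit lay well beyond it, at 63710 bp upstream and 62778 bp downstream, and the outermost members at 46398 and 27247 bp.

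**Figure D3:**
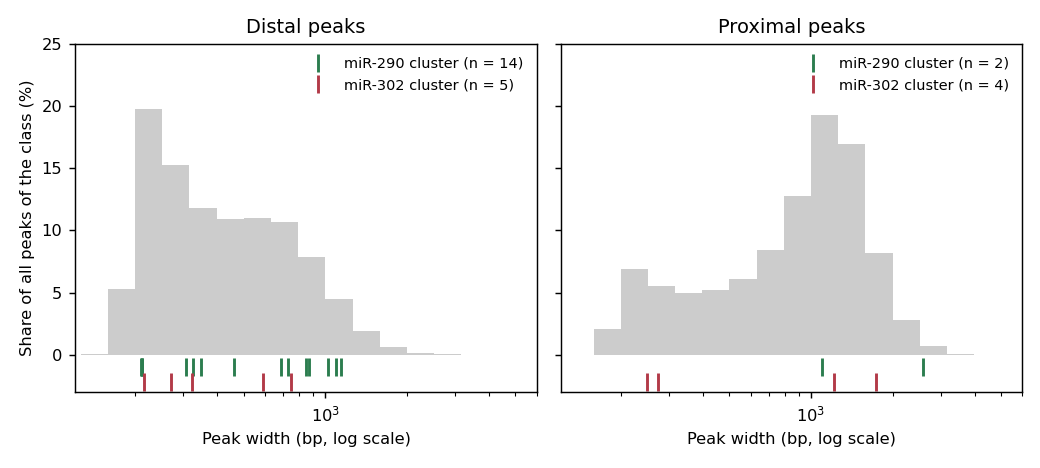
Widths in bp (log scale) of the peaks of the miR-290 cluster (green ticks, 14 distal and 2 proximal) and the miR-302 cluster (red ticks, 5 distal and 4 proximal) under the distribution of all distal and all proximal peaks (grey bars, share in percent of the class). The wide miR-290 peak, at 2592 bp, is at the upper end of the proximal peaks and the peak at Mir302b, at 273 bp, is near the lower end.

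The counts were set beside those of all miRNA genes. The median miRNA gene had 5 peaks within 50 kb, the interquartile range ran from 2 to 10, and 153 genes had none. Fewer peaks than the 16 of the miR-290 cluster were found at 94.5% of miRNA genes and at 89.3% of protein-coding genes, and 121 miRNA genes had 16 or more. The 9 peaks of the miR-302 cluster exceeded those of 68.5% of miRNA genes and 56.1% of protein-coding genes. Peaks within 50 kb of any TSS of a gene were counted, so a protein-coding gene with several TSSs can have a wider region. Windows of genes in the same cluster overlap almost completely, so these percentiles describe places in the genome and not independent genes.

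**Figure D4:**
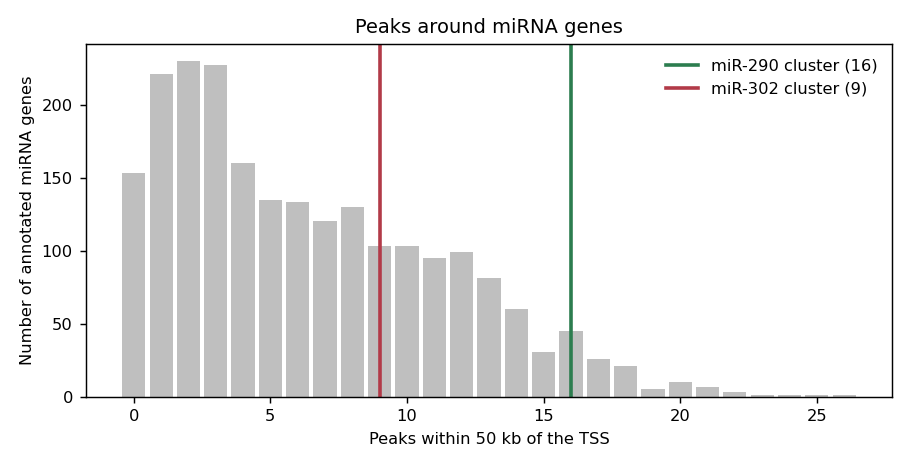
Number of annotated miRNA genes (2202 in all) by the number of peaks within 50 kb of the TSS, with the miR-290 cluster (green line, 16 peaks) and the miR-302 cluster (red line, 9 peaks). The green line is in the upper tail, with 94.5% of genes below it, and the red line lies above the median of 5.

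Motifs were searched on both strands in the 300 bp at the centre of each peak, and again over whole peaks. The composite OCT4::SOX2 motif, CATTGT, any base, then the octamer ATGCAAAT, with up to 2 mismatches, is the site to which OCT4 and SOX2 bind side by side. It matched in 0 of the 16 miR-290 peaks and 0 of the 9 miR-302 peaks, also over whole peaks, and the octamer alone matched in none. Matched by letters in this strict way, the motifs were rare in the whole list, at 0.431% of all peak centres for the composite and 1.84% for the octamer. A count of 0 says only that these letters were not in these windows, and at such shares a count of 0 of 25 peaks cannot be told from the share of all peaks. A peak whose 300 bp centre held the composite motif was found within 50 kb for 1.73% of miRNA genes and 2.24% of protein-coding genes. The nearest such peak was 1040.2 kb from a listed TSS of the miR-290 cluster and 3490.6 kb from one of the miR-302 cluster. Matches away from peak centres were not counted in these shares and distances, so sites in the outer parts of peaks may lie nearer.

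The closest approach to the composite motif stood in the 1094 bp peak, 6.5 kb upstream of Mir290a, 260 bp from the peak centre (chr7:3211869-3211883). It had 3 mismatches, G10A, C11G and A14G, with the motif base first, positions counted from 1 at its 5′ end, and then the base of the site. All 3 fell in the octamer and none in the SOX part. How often peaks of like width hold a match with 3 mismatches was not determined, so nothing can be read from its presence here. It is shown with 20 bp on each side (chr7:3211849-3211903, plus strand), with the site in capitals.
miR-290 peak near match: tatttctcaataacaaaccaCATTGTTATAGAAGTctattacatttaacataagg

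Other motifs of the stem cell network were present in a few peaks. STAT3 (TTCCNGGAA), which acts downstream of LIF, matched in the centre of 1 miR-290 peak, the 1019 bp peak 17.2 kb upstream, 57 bp from its centre, and 1.23% of all peak centres held it. Of peaks within 10% of that width, 4.18% held STAT3 anywhere. A second match lay 266 bp from the centre of the 689 bp peak, which is 24.3 kb upstream. The centre of the 1019 bp peak is printed because it is the upstream peak with a LIF-related motif near its middle (chr7:3201274-3201573, plus strand), with the match in capitals.
miR-290 STAT3 peak centre: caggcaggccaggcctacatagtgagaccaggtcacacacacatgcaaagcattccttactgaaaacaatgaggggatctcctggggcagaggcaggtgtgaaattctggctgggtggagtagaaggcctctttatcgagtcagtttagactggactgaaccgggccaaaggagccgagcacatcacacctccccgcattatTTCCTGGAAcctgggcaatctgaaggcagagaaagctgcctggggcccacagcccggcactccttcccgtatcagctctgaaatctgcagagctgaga

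CTCF, the factor that anchors chromatin loops, matched with no mismatch in the peak just downstream of Mir295, 20 bp from its centre, where 11.7% of all peak centres held a match with up to 1 mismatch. Another exact match was in the peak at Gm20553, 148 bp from its centre, and matches with 1 mismatch were in the outermost upstream peak, 8 and 288 bp from its centre, and in the 689 bp peak. Over whole peaks, CTCF thus matched in 4 of 16 miR-290 peaks, on both sides of the hairpins, and in 0 of 9 around the miR-302 cluster. Of all peaks within 10% of the width of a member, 17.6% held a CTCF match anywhere as the mean over the 16 miR-290 peaks, and 15.8% as the mean over the 9 of the miR-302 cluster. The middle of the peak downstream of Mir295 follows (chr7:3221978-3222277, plus strand), with the match in capitals.
miR-290 CTCF peak centre: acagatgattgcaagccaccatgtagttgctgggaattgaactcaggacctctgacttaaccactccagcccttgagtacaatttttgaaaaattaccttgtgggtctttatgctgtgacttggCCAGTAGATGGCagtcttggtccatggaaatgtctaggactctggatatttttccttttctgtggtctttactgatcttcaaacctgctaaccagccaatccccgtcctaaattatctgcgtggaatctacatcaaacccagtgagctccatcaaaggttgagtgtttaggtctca

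ESRRB (TCAAGGTCA), an orphan nuclear receptor of the naive network, matched in the centre of 1 peak of each cluster, and 1.85% of all peak centres held it. These were the 350 bp peak beyond the start of Nlrp12 and the 322 bp peak 24.0 kb before Mir302b, 54 bp from its centre. Off centre, ESRRB also matched in the peak just downstream of Mir295, 222 bp from the middle, where 4.1% of peaks of like width held it. Over whole peaks it thus matched in 2 of 16 miR-290 peaks and 1 of 9 miR-302 peaks. The mean share of peaks of like width was 3.18% for the miR-290 peaks and 2.73% for the miR-302 peaks. The 322 bp peak is printed as the only STAT3, ESRRB or composite match around the miR-302 cluster (chr3:127521064-127521363, plus strand), with the match in capitals.
miR-302 ESRRB peak centre: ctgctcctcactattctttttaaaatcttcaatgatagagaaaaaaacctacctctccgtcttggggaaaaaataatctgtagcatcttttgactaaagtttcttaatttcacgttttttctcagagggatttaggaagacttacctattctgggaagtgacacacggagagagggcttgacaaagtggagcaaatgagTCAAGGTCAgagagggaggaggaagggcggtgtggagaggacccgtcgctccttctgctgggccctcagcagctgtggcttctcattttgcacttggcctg

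The commoner motifs were counted in the same centres. The KLF letters, GGGNGNGGC, matched in 2 of 25 centres, where 15.7% of all peak centres in the list had them. The SOX letters given above matched in 1 centre, beside 18.6% of all, and the TATA letters in 1, beside 12.7% of all. The TCF letters matched in 4 centres, beside 4.9% of all, and the MYC letters in 2, beside 5.18% of all. A CTCF match in the 300 bp at the centre of the 249 bp peak near Gm43729 lay beyond the edge of that peak. Over whole peaks, KLF matched in 3 miR-290 peaks, among them the wide peak over Mir290a, and in 2 peaks of the miR-302 cluster, those at the Ank2 and the Larp7 and Zgrf1 promoters. As the mean over the members, 31% of peaks within 10% of the width held it for the 16 miR-290 peaks and 25.9% for the 9 of the miR-302 cluster.

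The genes around which the members work were examined in the same way. All 16 genes of the miRNA pathway, from Drosha and Dgcr8, which cut the hairpin out in the nucleus, to Dicer1, which cuts the loop, and Ago2, which holds the mature strand, had a peak centred within 1 kb of a TSS, beside the 70.8% of all protein-coding genes. Their peak counts within 50 kb ran from 2 at Zcchc11 to 19 at Trim71, which encodes a regulator of developmental timing, with a median of 11, where the median of all protein-coding genes was 8. All 15 genes widely described as targets had one as well. Their counts ran from 4 at Dkk1, an inhibitor of Wnt signalling, to 23 at Mbd2, which binds methylated DNA, with a median of 12, and Cdkn1a had 14 and Lats2, a kinase of the Hippo pathway, 16.

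Of 43 other miRNA genes, chosen from related and from differentiation clusters, 18 had a peak centred within 1 kb, beside 19.4% of all miRNA genes, and 9 had a hairpin in a peak, beside 12.7% of all. The 18 genes rested on 11 peaks, since 6 genes of the miR-17-92 cluster had the same nearest peak and Mir106b, Mir93 and Mir25 another, and the 9 hairpins lay in 7 peaks. Mir17 and Mir18 of the miR-17-92 cluster shared a 229 bp peak, and Mir106b and Mir93 a 618 bp peak. The hairpins of Mir141 and Mir200c, of the epithelial miR-200 family, had 17 peaks within 50 kb each, and Mir143 and Mir145a had 18, the most of this list. Mir134, Mir470, Mir1a-2 and Mir133a-1 had 1 each. The miR-290 cluster, with 16, stood below 4 of these 43 genes.

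As a check of the cell type, all 10 stem cell markers, among them Pou5f1, Nanog and Zfp42, had a peak centred within 1 kb of a TSS. Of all protein-coding genes 70.8% had one. The counts of these markers within 50 kb ran from 4 at Klf4 to 29 at Esrrb. Their median was 15.5, where that of all protein-coding genes was 8. The share does not single out ES cells, since 4 of 6 fibroblast markers, 4 of 4 trophectoderm, 3 of 4 endoderm and 3 of 4 neuron and muscle markers had a peak at the TSS too. Col3a1, Postn, Alb and Myh6 had none. A peak shows accessibility, not expression. A peak whose 300 bp centre held the composite motif lay within 50 kb of Pou5f1 and Sox2 only among the 10 markers. Among the 16 pathway genes such a peak lay within 50 kb of Ago1 and Ago3, neighbours on chromosome 4 that may share it. Over all protein-coding genes the share was 2.24%, and matches away from peak centres were not counted.

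**Figure D5:**
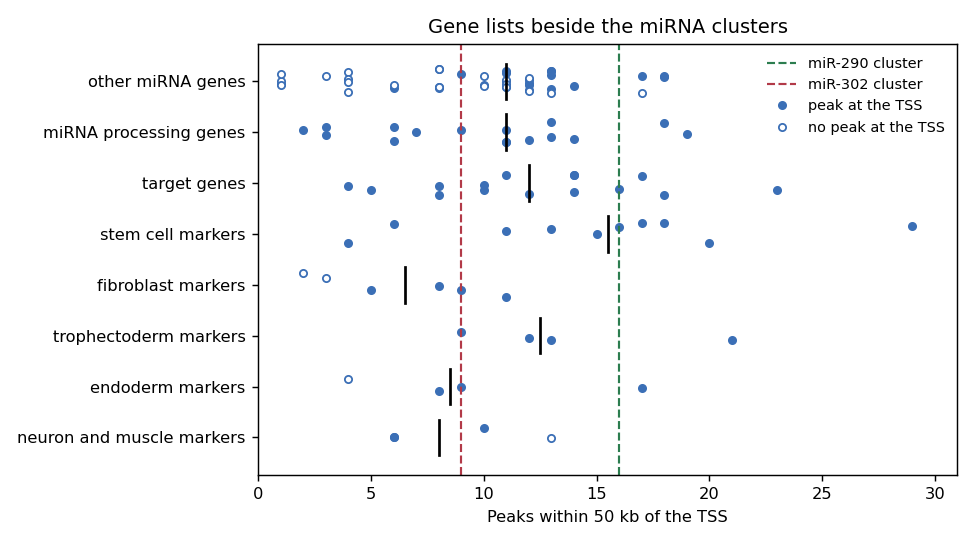
Peaks within 50 kb of the TSS for each gene of the lists (filled points, a peak centred within 1 kb of the TSS, open points, none), with the median of each list (black bar) and the counts of the miR-290 cluster (16, green line) and the miR-302 cluster (9, red line). The stem cell markers have the highest median, 15.5, next to the miR-290 line, and points are spread vertically at random for visibility.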

How the data were processed

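ATAC-seq libraries of 54 samples were made from ZHBTc4 mouse ES cells expressing mCherry-OCT4-AID. The authors aligned reads to GRCm38 with STAR 2.6.1c, removed duplicates with Picard, called peaks with MACS2 2.1.1.20160309 on paired-end fragments and merged, with BEDTools, the peaks of every OCT4-AID experiment with dox. The deposited file holds plain positions in bp (chromosome, start and end), with no count, signal or score, so depth is unknown, no value belongs to a sample and no test was made. A merged list keeps regions called in any library, so peak number and width grow with depth and number of libraries. The methods describe removal of peaks above 5 kb, but 11 such peaks were in the list.

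Positions are given 1-based on GRCm38.p6. Peaks were assigned by their centre to GENCODE M21 TSSs (proximal within 1 kb, distal otherwise), and classes in the order promoter, exon, intron and intergenic. Percentiles are shares of all genes or peaks with a lower value. Motif letters, spelled out in the text, were matched on both strands with no mismatch, except for the composite OCT4::SOX2 motif (up to 2) and a CTCF consensus in degenerate letters (up to 1). The MYC and STAT3 letters read the same on both strands and were counted once, and the composite motif contains the octamer. miRNA sequences, promoters and host transcripts are from RefSeq. All 14 miRNA genes of the clusters had at least 1 mature strand in the table, 26 strands in all. Zcchc11 was matched to GENCODE through its synonym Tut4. Analyses used Python 3.11.15, numpy 2.4.6, pandas 2.3.3 and matplotlib 3.10.9, and were checked on simulated data with planted motifs and distances.

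The members and gene lists were chosen with earlier results of these data known. Named genes were the members, the other miRNA genes of the clusters, genes overlapping them, genes with a TSS within 1 kb of a member peak or nearest to a distal one, and the genes with the highest and lowest counts of each list. Other list genes named for their role, the host promoters, and the peaks printed for a STAT3, CTCF or ESRRB match or a near match, were chosen after their values were seen.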

Additional observations from a re-analysis of the deposited data

How the results depend on the processing

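Each of 12 results was recomputed under 68 alternatives in all, of which 6 were chosen after seeing the data. Of these, 56 left the value within 1.5 times, or a percentile within 10 points, of that given above. Leaving out peaks under 200 bp or joining peaks with gaps under 150 bp kept all values within these limits, and counting a peak that overlaps the 50 kb window by any base left the peak counts of 16 and 9 as they were. The window mattered most. With 20 kb the miR-290 cluster had 7 peaks, 6 of them distal, and the miR-302 cluster 4 peaks, 1 of them distal, with a median width of 509 bp. With 100 kb the miR-290 cluster had 30 peaks, and the miR-302 cluster had 24 peaks, 18 of them distal, more than 87.3% of miRNA genes. Measured to the nearest peak edge instead of the centre, the distance was 507 bp for the miR-290 members and 0 bp for the miR-302 members. With whole peaks and up to 3 mismatches, the OCT4::SOX2 motif matched in 1 miR-290 peak, and every other search gave 0 in both clusters.

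No paired analysis was possible because the list holds no value per sample, and for the same reason no replicate was left out. The depth behind each peak is unknown, so a gap between peaks shows that no peak was called there and not that the chromatin was closed. Whether these regions changed with IAA, cell cycle phase or time was not analysed here.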
